A study of Mus musculus with 17 samples.

Results

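The hypothalamus of leptin-deficient ob/ob mice was set directly against that of mice made diabetic with streptozotocin (STZ), using the 5 ob/ob and 6 STZ arrays among the 17 Affymetrix arrays of the study. Arrays were chosen by their titles alone, and no control array entered the test. All mice were male C57Bl/6 aged 9 weeks, and 1 array was made for each hypothalamus. The STZ mice were wildtype and received 1 intraperitoneal dose of 200 µg STZ per g body weight, and the ob/ob mice carried that genotype. The remaining 6 arrays came from wildtype mice given vehicle, and their levels are printed only as a reference. Genotype, body weight, insulin, leptin and the STZ injection differed together between the groups, so their parts in any difference cannot be told apart. The series title places the comparison in a study of diabetes, insulin and brain cholesterol metabolism.

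STZ destroys the insulin-producing beta cells of the pancreas, which leaves little insulin and high blood glucose. In ob/ob mice a mutation removes leptin, the fat-derived hormone that restrains feeding, and the animals become obese with high insulin. The hypothalamus reads both hormones: arcuate neurons make the appetite-suppressing precursor Pomc and the appetite-stimulating peptide Npy, and lateral neurons make orexin from the Hcrt gene. Class I molecules of the major histocompatibility complex (MHC) show peptides at the cell surface and need the light chain B2m, and interferons raise these genes together with immunity-related GTPases such as Igtp.

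The values were MAS5 signals, 1 per probe set and array, taken as log2. Of 22626 probe sets that were not array controls, 13576 were bright enough to be tested, standing for 8003 genes. Median signals ran from 641 to 707 in STZ and from 659 to 703 in ob/ob. The neuropeptides of the region were present in every array, with Hcrt between 5022 and 8281, Oxt between 8024 and 15357 and Avp between 11010 and 19936. Markers of pituitary and blood were under the signal filter. The 12 tested markers of striatum, cortex and thalamus had a mean log2 level of 10.662 to 10.999 in STZ, 10.881 to 11.100 in ob/ob and 10.440 to 10.916 in controls. Arrays are limited in precision by their number, and the p-values set each group difference against the spread between these hypothalami.

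The DNA before the start sites of 4 lower genes is shown first: B2m, the 1 gene that passed the test, and Igtp, Gbp7 and Irgm1, interferon-induced GTPases that did not pass, chosen because their windows hold a motif match. The sequences are RefSeq windows of 250 bases upstream of the gene start (mouse build GRCm38.p6), 5′ to 3′ on the gene's own strand. Capitals mark matches to the core of the interferon-stimulated response element (ISRE), GAAANNGAAA, and to the core of the gamma-activated site (GAS), TTCNNNGAA, each searched on both strands. B2m lies at chr2:122147437-122147686 on the + strand, Igtp at chr11:58199306-58199555 on the + strand, Gbp7 at chr3:142530086-142530335 on the + strand and Irgm1 at chr11:48871421-48871670 on the - strand.
B2m: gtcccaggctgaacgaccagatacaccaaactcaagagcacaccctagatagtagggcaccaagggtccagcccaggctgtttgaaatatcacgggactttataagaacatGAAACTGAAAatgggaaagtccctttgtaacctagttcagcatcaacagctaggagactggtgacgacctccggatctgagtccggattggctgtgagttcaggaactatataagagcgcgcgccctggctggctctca
Igtp: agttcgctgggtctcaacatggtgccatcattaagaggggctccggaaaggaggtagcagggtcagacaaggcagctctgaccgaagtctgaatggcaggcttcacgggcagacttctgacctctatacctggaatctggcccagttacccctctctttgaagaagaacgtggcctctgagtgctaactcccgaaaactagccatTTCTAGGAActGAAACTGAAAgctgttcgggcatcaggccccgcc
Gbp7: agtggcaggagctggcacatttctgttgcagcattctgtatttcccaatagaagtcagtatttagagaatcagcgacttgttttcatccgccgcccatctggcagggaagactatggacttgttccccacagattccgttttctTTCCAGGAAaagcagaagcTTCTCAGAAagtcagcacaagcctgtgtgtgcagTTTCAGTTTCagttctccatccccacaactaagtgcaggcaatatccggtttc
Irgm1: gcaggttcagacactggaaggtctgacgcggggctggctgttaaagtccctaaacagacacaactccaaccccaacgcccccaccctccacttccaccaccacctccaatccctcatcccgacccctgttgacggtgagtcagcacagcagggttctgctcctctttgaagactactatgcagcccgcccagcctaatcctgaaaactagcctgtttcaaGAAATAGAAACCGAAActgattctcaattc
The ISRE core nearest to the start began 139 bases before it in B2m, 53 bases in Gbp7, 34 bases in Igtp and 24 bases in Irgm1. The match in Gbp7 was on the opposite strand, and Irgm1 held another that overlapped its nearest. Of all 32851 windows of this length 2.98% held the ISRE core and 7.02% the GAS core. By gene, 6 of the 11 interferon-induced genes with a window held the ISRE core and 5 the GAS core, against 3.46% and 8.13% of all 27025 genes. Of the 7 genes in the MHC class I list with a window, 1 held the ISRE core, B2m, and 1 the GAS core. That list also holds class II genes. H2-K1, H2-D1 and Ifitm3, which were also lower in ob/ob without passing, held neither exact core in this window. Only exact matches were searched, so an element that departs from the core letters would be missed. A match describes the letters and not binding.

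B2m, the light chain of MHC class I, was the 1 gene that passed the test between ob/ob and STZ hypothalamus, and it was lower in ob/ob. Its signal was 6004, 5656, 6384, 6313 and 6264 in the 5 ob/ob arrays, and in STZ the lowest, median and highest were 7718, 8300 and 9635. All 5 ob/ob arrays lay below all 6 STZ arrays. B2m fell by 0.48 ± 0.062 on the log2 scale (SE, n = 5 and 6), to 0.716 of the STZ level (limma, adjusted p = 0.0214). The control arrays, at 6109 to 7374, all lay below the STZ arrays and overlapped with ob/ob. The other B2m probe set also had no overlap, at -0.42 ± 0.075, and missed the threshold (adjusted p = 0.115). At a threshold of 0.05 the adjusted test called 1 of 13576 probe sets, 0.00737% of them. Unadjusted p under 0.05 was reached by 534 probe sets, 3.93%, with 264 higher and 270 lower in ob/ob, where chance would give 679. Over genes, 2.2% were higher and 2.06% lower at that unadjusted threshold. Every ob/ob array lay above every STZ array in 16 genes, 0.2% of those tested, and below in 24, 0.3%. The call on B2m was lost when STZ 2, STZ 6, ob/ob 1, ob/ob 2 or ob/ob 3 was left out, with adjusted p between 0.0611 and 0.108 and a difference of -0.45 to -0.50. It was also lost with the level of the striatum, cortex and thalamus markers as a covariate, at -0.49 (adjusted p = 0.239), and without ob/ob 3 and ob/ob 4 together, at -0.52 (adjusted p = 0.11). Without the signal filter the adjusted p was 0.0512, without the variance trend 0.079, and with the microglia markers as a covariate 0.0881.

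**Figure D1:**
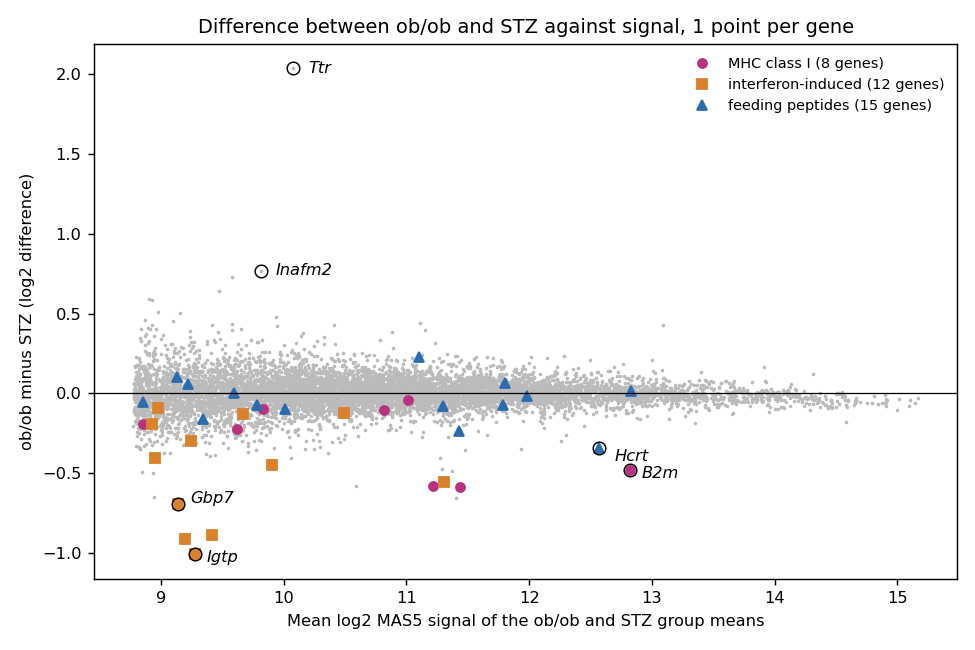
The log2 difference (ob/ob minus STZ) of each of the 8003 genes tested is plotted against its mean log2 MAS5 signal, with members of 3 lists in colour and 6 genes circled. All 8 tested genes of the MHC class I list, which also holds class II genes, and all 12 of the interferon-induced list lie below 0. Ttr stands highest at 2.04.

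The heavy chains of MHC class I stood lower in ob/ob without passing. H2-K1, which pairs with B2m at the cell surface, read 2245, 2128, 1829, 2480 and 2714 in ob/ob and 2962 to 3833 in STZ with a median of 3353. The groups did not overlap, and controls ran from 2052 to 2661, among the ob/ob arrays. Its difference was -0.59 ± 0.095 and missed the threshold (limma, adjusted p = 0.0742). Another H2-K1 probe set, also without overlap, gave -0.73 (adjusted p = 0.0867), and the remaining ones gave -0.37 each. The probe set at -0.73 had an ob/ob geometric mean of 423, under the cut of the signal filter. It was therefore tested only through its STZ arrays. H2-D1, another heavy chain, read 1347, 2202, 1900, 1894 and 2566 in ob/ob against 2388 to 3577 in STZ. Here the groups overlapped through ob/ob 5, at a difference of -0.58 ± 0.14 (adjusted p = 0.586). Every tested H2-K1 and H2-D1 probe set was negative, and all of them are of the cross-hybridizing kind, to which related heavy chains can add signal.

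In all, 8 of 12 measured genes of the antigen presentation list were tested. H2-Aa, at an ob/ob geometric mean of 432, met the filter cut of 439 only through its STZ arrays. The 8 genes tested were all negative, and their median difference was -0.21 beside 0.00214 for all genes. Of these, 3 were lower at an unadjusted p under 0.05 (B2m, H2-K1 and H2-D1), 0 were higher, and 1 passed after adjustment, beside 2.06% of all genes lower and 2.2% higher at the unadjusted threshold. Tapbp, the chaperone that loads class I, stood at -0.10, and Psmb10, an immunoproteasome subunit, at -0.04. Cd74 and H2-Aa, which belong to class II and were in the same list, stood at -0.23 and -0.19. None of these 4 passed. A probe set assigned to both H2-Q6 and H2-Q8 gave -0.87 ± 0.16 (adjusted p = 0.172).

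Interferon-induced genes were lower in ob/ob by larger differences on dimmer signals, and none passed after adjustment. Igtp, an immunity-related GTPase, read 475, 325, 393, 485 and 537 in ob/ob, while STZ ran from 642 to 1495 with a median of 836. Its groups did not overlap, and controls, at 329 to 506, covered nearly the same range as ob/ob. The STZ level was 2.01 times that of ob/ob (-1.01 ± 0.20, limma adjusted p = 0.213). Gbp7, a guanylate-binding GTPase, read 420, 452, 417, 453 and 480 in ob/ob and 566, 755 and 833 as lowest, median and highest in STZ. No overlap was seen for Gbp7 (-0.69 ± 0.11, adjusted p = 0.0742), and controls ran from 424 to 618. Iigp1, another GTPase of this family, read 583, 536, 412, 446 and 560 against 653 to 1606 (-0.89 ± 0.20, adjusted p = 0.448), again without overlap. Irgm1, which regulates those GTPases, read 949, 756, 823, 754 and 848 against 929 to 1321 (-0.45 ± 0.096, adjusted p = 0.341). Only ob/ob 1 reached into the STZ range of Irgm1.

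Antiviral effectors followed with the same sign. Ifitm3, a membrane protein that restricts viral entry, read 1599, 2133, 2052, 2306 and 2428 in ob/ob and 2618 to 3927 in STZ, without overlap (-0.56 ± 0.11, adjusted p = 0.213). Oas1a, a sensor of double-stranded RNA, read 281, 597, 262, 544 and 602 in ob/ob and 659 to 973 in STZ, also without overlap (-0.91 ± 0.22, adjusted p = 0.586). For Oas1a the control geometric mean of 718 stood near the STZ value of 807 and away from the 428 of ob/ob, unlike Igtp, at 433 in controls, 436 in ob/ob and 879 in STZ. This contrast between genes was not tested. Irf7, a transcription factor induced by interferon, stood at -0.40, Irf9 at -0.30, Stat2 at -0.19, Irf1 at -0.13, Ifit3 at -0.13 and Ifit2 at -0.09.

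Of 20 interferon-induced genes measured, 12 were tested and the others were under the signal filter. That filter used the mean over both groups, with a cut at 439. The ob/ob geometric means of Igtp, Oas1a and Irf7, at 436, 428 and 430, were under the cut. These genes were therefore tested only through their STZ arrays, and the counts of this list hold that selection. All 12 genes tested were negative, with a median of -0.43. An unadjusted p under 0.05 was reached by 7, all lower in ob/ob, beside 2.06% of all genes. In 5 the ob/ob arrays all lay below the STZ arrays, beside 0.3% of all genes. Over both lists 9 of the 10 lower genes with the smallest p were members, and so were 7 of the 24 genes with every ob/ob array below every STZ array. The lists hold 20 of the 8003 genes tested. They were chosen with earlier results of these data known, so these counts are not independent support. The per-array mean log2 level of the interferon list ran from 9.61 to 10.01 in STZ, 9.20 to 9.42 in ob/ob and 9.23 to 9.57 in controls. STZ 5 and STZ 4 were the highest arrays, at 10.01 and 9.88, and without any 1 array the Igtp difference stayed between -1.10 and -0.86. A probe set assigned to Tgtp1 and Tgtp2, T cell-specific GTPases, gave -1.96 ± 0.39 (adjusted p = 0.213). Its ob/ob geometric mean of 214 was also under the cut, so it too was tested only through its STZ arrays.

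**Figure D2:**
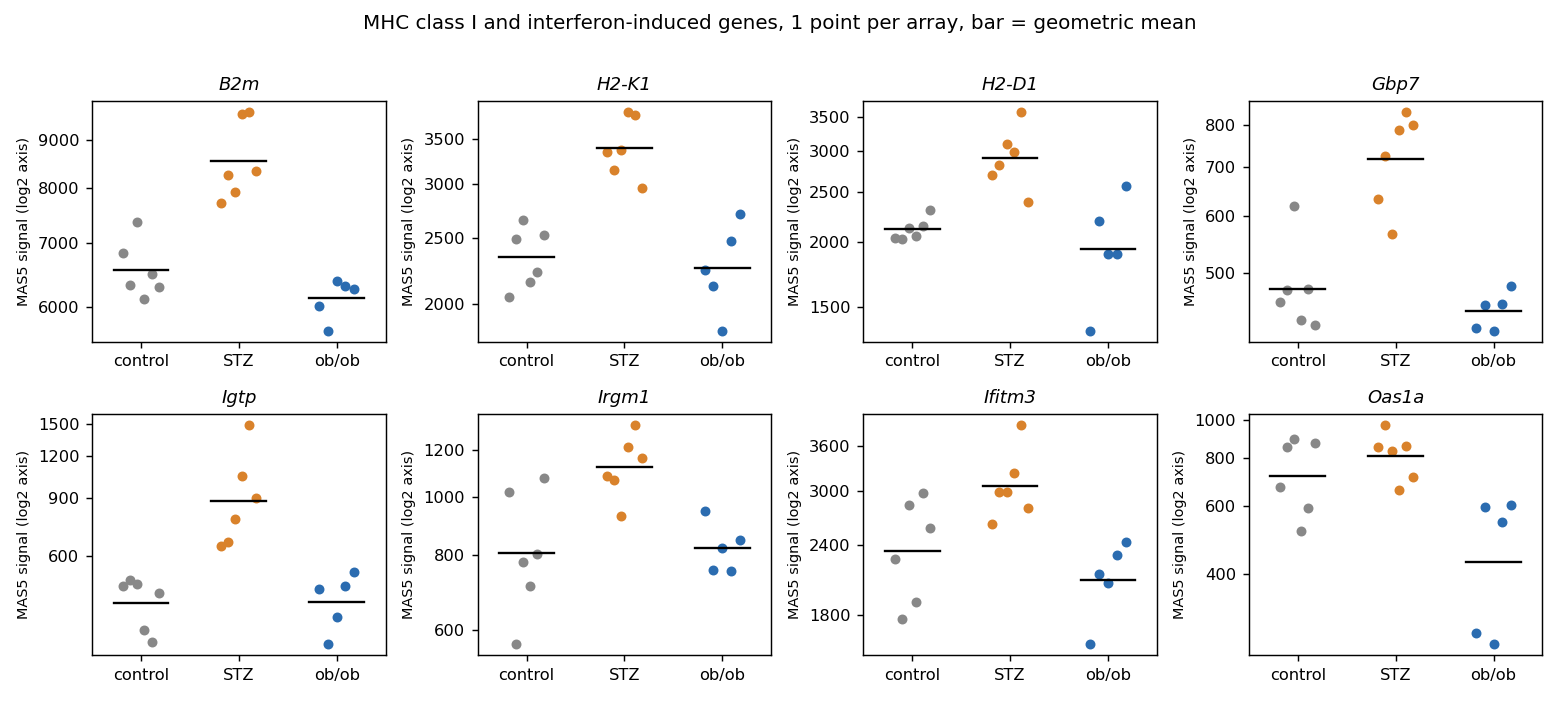
Each point is the MAS5 signal of 1 array on a log2 axis for 8 MHC class I and interferon-induced genes, with the geometric mean of each group as a bar. The STZ mean stands above the ob/ob mean in each panel, H2-D1 and Irgm1 overlap through 1 ob/ob array each, and the control mean lies nearer to ob/ob than to STZ except for Oas1a.

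Microglia, the resident immune cells, had markers with the same sign. All 7 tested microglia markers were negative, with a median of -0.11, and 2 were lower at an unadjusted p under 0.05, Cx3cr1 at -0.30 and Ctss at -0.12, beside 2.06% of all genes. The summed signal of the 9 measured markers ran from 21835 to 23077 in STZ, 19534 to 22792 in ob/ob and 21162 to 24091 in controls, so the groups overlapped. The defining markers Aif1 and Trem2 were under the signal filter. With the mean level of the microglia markers as a covariate, an alternative chosen after the data were seen, B2m stood at -0.47 and no longer passed (limma, adjusted p = 0.0881), and Igtp stood at -1.10 (adjusted p = 0.28). In tissue RNA, fewer cells of a type and less RNA per cell cannot be told apart.

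Among feeding signals, orexin and galanin were lower in ob/ob and the arcuate peptides were not separated, and none passed. Hcrt, the orexin precursor that promotes wakefulness and feeding, read 5043, 5494, 5991, 5022 and 5528 in ob/ob and 6060, 6557 and 8281 as lowest, median and highest in STZ. The groups did not overlap, and controls ran from 6282 to 10501, also above all ob/ob arrays. The difference was -0.35 ± 0.082 (limma, adjusted p = 0.586). Gal, the feeding peptide galanin, read 2575, 2591, 2622, 2148 and 2797 against 2821 to 3160 (-0.23 ± 0.063, adjusted p = 0.801), with no overlap, and controls ran from 2635 to 3403. Npy5r, a receptor for Npy, read 644, 640, 645, 633 and 527 against 653 to 740 (-0.16 ± 0.086, adjusted p = 0.999), so the separation was narrow. The other Npy5r probe set gave -0.13 with overlap between the groups. Region markers differed in sign beside these peptides. Of 8 tested hypothalamus markers, 6 were negative, Hcrt and Gal among them, with a median of -0.15. Of 5 striatum markers 4 were positive with a median of 0.17, and both cortex markers were positive. The thalamus markers were mixed, with 3 positive, 2 negative and a median of 0.003. With the level of the striatum, cortex and thalamus markers as a covariate Hcrt stood at -0.25 and Gal at -0.18.

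Pomc, the precursor of alpha-MSH, read 953, 1325, 1005, 845 and 920 in ob/ob and 891, 1074 and 1233 in STZ, with overlap throughout. Its difference was -0.10 ± 0.12, with a 95% interval of -0.34 to 0.15 on the log2 scale. Cartpt, which encodes the appetite-suppressing peptide CART, read 3383 to 4141 in ob/ob and 2745 to 4165 in STZ, at 0.06 with an interval of -0.12 to 0.25. Npy read 3085 to 3701 in ob/ob and 3042 to 4510 in STZ, at -0.07 with an interval of -0.25 to 0.11. As levels, all 11 arrays lay below the control range of Pomc, 1332 to 2118. For Cartpt, controls ran from 3934 to 4780 and overlapped with the highest array of each group, and for Npy they ran from 2572 to 3172 and overlapped with the lowest of each. The intervals, which are not adjusted for the number of genes, give the differences that the spread of these arrays allows. Of 15 tested feeding genes, 9 were negative, 2 were lower and 1, Cck, was higher at an unadjusted p under 0.05, beside 2.06% and 2.2% of all genes. Among 11 neurosecretory genes, Oxt stood at -0.19, Avp at 0.02 and Trh at -0.20, and 1, Sst, was lower at an unadjusted p under 0.05, beside 2.06% of all genes.

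**Figure D3:**
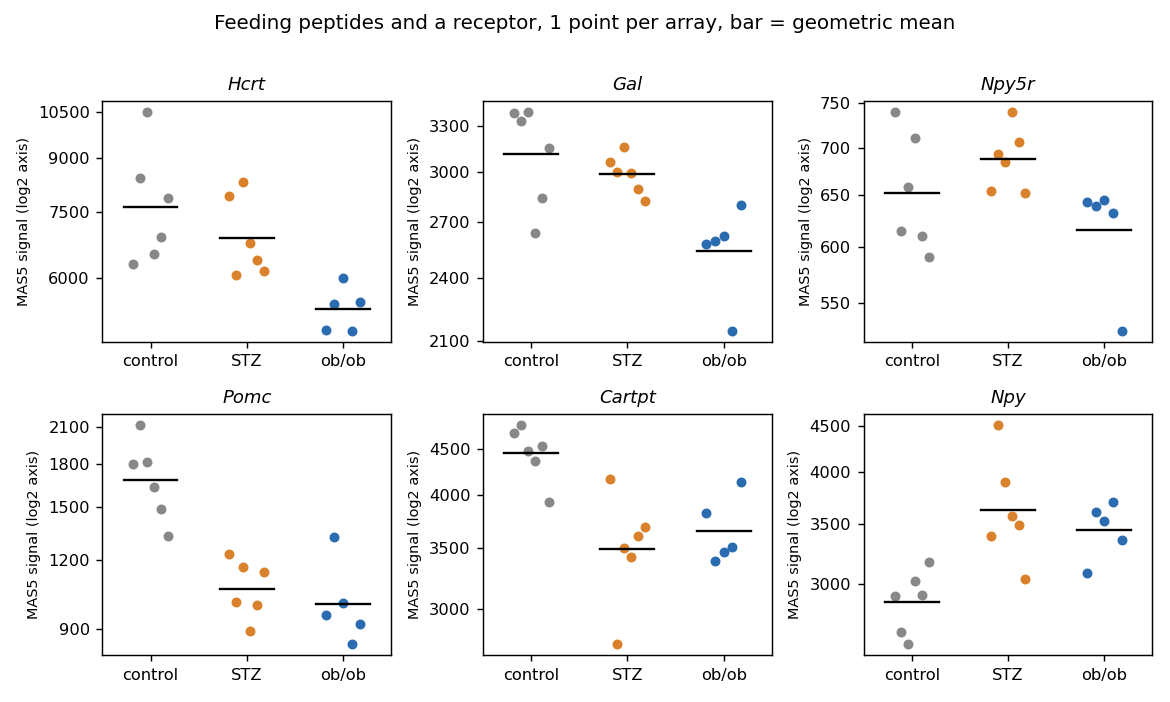
Each point is the MAS5 signal of 1 array on a log2 axis for 5 feeding peptides and the receptor Npy5r, with geometric means as bars. All ob/ob arrays lie below all STZ arrays for Hcrt, Gal and Npy5r, while Pomc, Cartpt and Npy overlap.

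Genes of leptin signalling were compared between ob/ob mice, which lack leptin by genotype, and wildtype STZ mice, and none passed. The leptin level of the STZ mice is not given in the sources used here. Of 10 tested members 6 were negative, the median was -0.05, and 2 were lower at an unadjusted p under 0.05, beside 2.06% of all genes. Stat3, the transcription factor below the leptin receptor, read 1953, 2629, 2414, 2237 and 2260 in ob/ob and 2253 to 3017 in STZ (-0.18 ± 0.084, limma adjusted p = 0.999), with overlap. Another Stat3 probe set gave 0.07. Asb4, an imprinted gene of arcuate neurons, read 762 to 1009 against 918 to 1193 (-0.22 ± 0.096). Lep, Lepr, Socs3, Insr and Irs2 were under the signal filter. Agrp, Pmch and Crh are not analysed here, since no probe set carries those symbols alone. In the insulin signalling list 20 genes were tested, 11 were positive, the median was 0.01, and 0 reached an unadjusted p under 0.05. Slc2a1, which carries glucose across brain capillaries, read 4753 to 5815 in ob/ob and 4602 to 5664 in STZ. Its difference was 0.01 with an interval of -0.13 to 0.15, and its other probe sets gave 0.04 and -0.02. Controls, at 3678 to 4601, lay below both groups.

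Most enzymes of cholesterol synthesis, the subject of the series title, had small positive differences between ob/ob and STZ. Of 17 enzymes tested 16 were positive, with a median of 0.12 beside 0.00214 for all genes, and none passed after adjustment. Idi1, an isomerase of the isoprenoid steps, read 3247, 2943, 3139, 3362 and 2873 in ob/ob and 2506, 2639 and 3103 in STZ (0.19 ± 0.066, limma adjusted p = 0.999), and controls ran from 2865 to 3765. Fdft1, squalene synthase, read 4107, 4183, 4034, 4354 and 4175 against 3547, 3838 and 4133 (0.12 ± 0.050, adjusted p = 0.999). Both overlapped with STZ, and they were the 2 members higher at an unadjusted p under 0.05, beside 2.2% of all genes. Mvk stood at 0.27, Tm7sf2 at 0.22, Sqle at 0.14 and Hmgcs1 at 0.08, and the 1 negative enzyme was Sc5d at -0.09. The sterol regulators Srebf1 and Srebf2 stood at -0.04 and 0.04, with intervals of -0.25 to 0.17 and -0.09 to 0.17. Of 17 fatty acid synthesis genes 2 were higher at an unadjusted p under 0.05, Fasn at 0.12 and Elovl1 at 0.14, beside 2.2% of all genes and with a list median of 0.01. Among 13 genes of lipid droplets and lipoprotein lipase 11 were positive, beside 51.2% of all genes. By the same rule 3 were higher, beside 2.2% of all genes: Dgat2 at 0.19, Mgll at 0.23 and Lpl at 0.32. Another Dgat2 probe set gave 0.04, and the other Mgll probe sets gave 0.22 and 0.03.

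Glucocorticoid-responsive genes were positive in 14 of 17, beside 51.2% of all genes, with a median of 0.14 beside 0.00214, and none passed. Fkbp5, a chaperone partner of the glucocorticoid receptor, read 2896, 2676, 2347, 2832 and 2738 in ob/ob and 1648, 2125 and 2732 in STZ. The groups overlapped at a difference of 0.32 ± 0.11 (limma, adjusted p = 0.999), and controls ran from 1844 to 2104. Mt2, a metallothionein, and Klf9, a transcription factor, stood at 0.16 and 0.14, and these 3 were the members higher at an unadjusted p under 0.05, beside 2.2% of all genes. Sgk1, a kinase induced by glucocorticoids, read 8766 to 12006 in ob/ob and 4030 to 13923 in STZ, at 0.43 with an interval of -0.14 to 0.99. Plin4, a lipid droplet protein, read 854 to 1478 against 767 to 1357, at 0.24 with an interval of -0.10 to 0.57.

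Most chaperone genes had small negative differences, and none passed. Over all genes tested, 3905 of 8003 were negative, which stands beside the counts of negative genes given here. In the endoplasmic reticulum list 16 of 21 genes were negative, the median was -0.04, and 4 were lower and 1 higher at an unadjusted p under 0.05, beside 2.06% and 2.2% of all genes. Pdia3, a disulfide isomerase, stood at -0.18 ± 0.064, Manf, a secreted stress protein, at -0.16 ± 0.060, Creld2 at -0.21 and Canx at -0.08, while Dnajb11 stood at 0.23. In the heat shock list 14 of 19 were negative, and Hspb1 and Cacybp were lower at -0.23 and -0.10 by the same rule, beside 2.06% of all genes. Imprinted genes were negative in 14 of 17, with 3, Asb4, Ndn and Dlk1, lower at an unadjusted p under 0.05, beside 2.06% of all genes. Ndn stood at -0.18 on its brightest probe set and between -0.20 and -0.38 on the others. Across the 41 other lists with 5 or more tested genes, medians ran from -0.15 to 0.17.

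**Figure D4:**
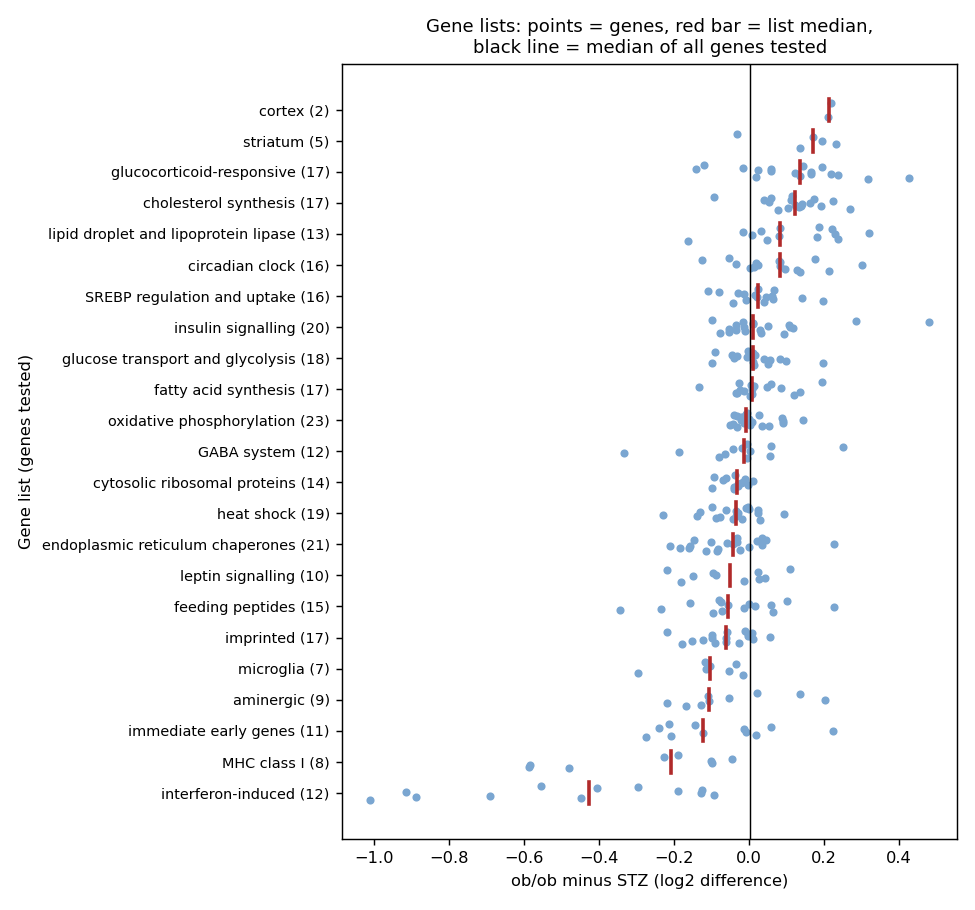
Each point is the log2 difference (ob/ob minus STZ) of 1 tested gene in 23 gene lists, with the list median as a red bar and the median of all genes as a black line. The interferon-induced median of -0.43 and the MHC class I median of -0.21 lie farthest to the left.

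Genes higher in ob/ob belonged to no single list, and none passed. Inafm2, a predicted membrane protein, read 1273, 1508, 1000, 960 and 1214 in ob/ob and 619, 669 and 832 as lowest, median and highest in STZ. The groups did not overlap, and ob/ob stood at 1.71 times STZ (0.77 ± 0.12, limma adjusted p = 0.0702), while controls ran from 484 to 1072. The uncharacterised 9430015G10Rik read 673, 603, 578, 583 and 547 against 325 to 533 (0.59 ± 0.14, adjusted p = 0.586), without overlap. Its STZ geometric mean of 396 was under the cut of the signal filter, so it was tested only through its ob/ob arrays. Tcn2, which carries vitamin B12 in blood, stood at 0.40 ± 0.10 and Islr, a secreted leucine-rich repeat protein, at 0.43 ± 0.11, both without overlap. Cxcl12, a chemokine, read 1042, 1197, 1176, 1099 and 1202 in ob/ob and 704, 821 and 1147 in STZ, with overlap and with controls at 1042 to 1300. Its difference was 0.42 ± 0.11 (adjusted p = 0.793), and another probe set gave 0.29. Gsn, an actin-severing protein, stood at 0.23 and Adcy9, an adenylyl cyclase, at 0.22, with 0.13 and 0.05 on its other probe sets. Auts2 stood at 0.17 on its brightest probe set and at -0.13 and -0.04 on the others. Rpusd1, Azin1 and Mgat4b stood at 0.24, 0.19 and 0.21. On the lower side outside the immune lists, Gabra2, a GABA-A receptor subunit, read 1010, 938, 1023, 940 and 820 against 1025 to 1330, without overlap (-0.33 ± 0.085, adjusted p = 0.631). Ap2b1, a clathrin adaptor subunit, stood at -0.47 ± 0.12 and Adgrl4, an endothelial adhesion receptor, at -0.31 ± 0.077.

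Ttr, the transthyretin carrier of thyroid hormone that the choroid plexus makes in quantity, had the largest difference of all genes and one of the widest spreads. It read 945, 1028, 4756, 10812 and 1007 in ob/ob and 272, 566 and 756 as lowest, median and highest in STZ. All ob/ob arrays lay above all STZ arrays, but ob/ob 3 and ob/ob 4 stood far above the other ob/ob arrays. Its difference was 2.04 ± 0.55 (limma, adjusted p = 0.801), and 0.90 without those 2 arrays, an alternative chosen after the data were seen. Another probe set gave 2.44 with overlap between the groups. The STZ geometric mean of that probe set, 241, was under the cut of the signal filter, so it was tested only through its ob/ob arrays. The remaining probe set, under the signal filter, read 111, 111, 2121, 6654 and 304 in ob/ob and 27.7 to 90.1 in STZ. The other 4 measured markers of choroid plexus, Kl, Aqp1, Folr1 and Kcne2, were under the signal filter. Their summed signal was 926, 843, 684, 792 and 895 in the 5 ob/ob arrays, 651 to 953 in STZ and 680 to 897 in controls. The 2 arrays high in Ttr held the lowest sums of those 4 markers among ob/ob. Signals this dim cannot show how much choroid plexus an array held, and the cause of the Ttr spread was not tested.

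**Figure D5:**
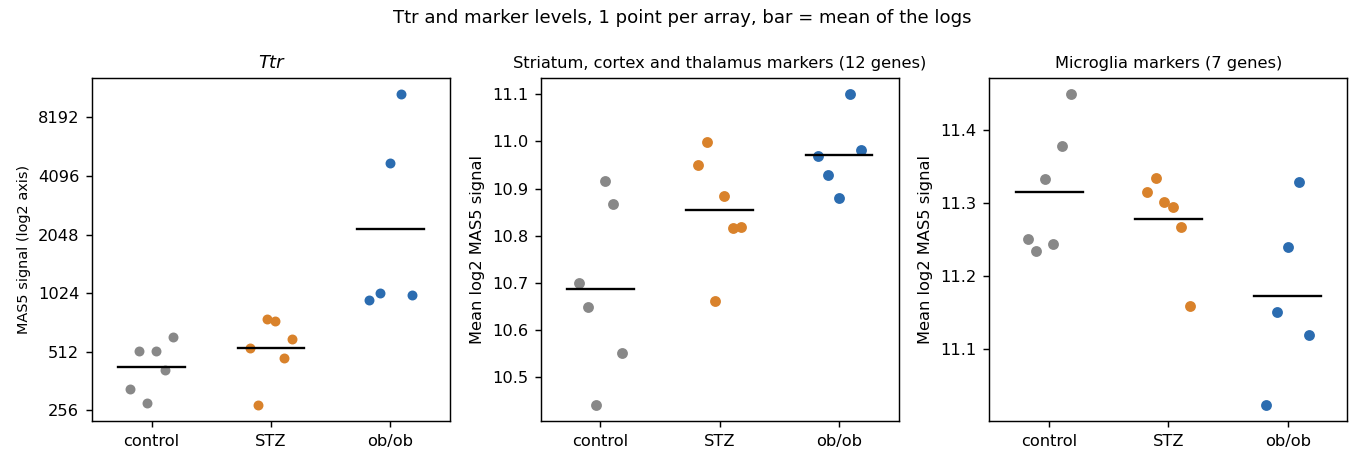
Ttr signal on a log2 axis and the mean log2 signal of 12 striatum, cortex and thalamus markers and of 7 microglia markers are plotted for each array, with the mean of the logs as a bar. Arrays ob/ob 3 and ob/ob 4 stand at 4756 and 10812 for Ttr, and the marker levels overlap between ob/ob and STZ.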

How the data were processed

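Biotin-labelled cRNA made from 10 µg RNA per hypothalamus with an oligo(dT) primer was hybridised to Affymetrix arrays, per the labels' protocols. The deposited values are intensity on a linear scale: the authors deposited MAS5 signals, per the submitters' processing notes, whose version and scaling target are not given in the sources used here. A 2% trimmed mean of 1500.4 on every array shows scaling to a common mean. Array titles gave the groups, and no label names a batch.

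Signals were taken as log2. The 64 array control probe sets were removed, as were probe sets whose mean log2 signal in the 11 arrays fell short of its 40th percentile, a geometric mean of 439. Probe sets with 1 gene symbol in the platform annotation named genes, and the Entrez identifiers of 20351 of 20380 were found in the RefSeq gene table. The brightest probe set stood for its gene, and one of the cross-hybridizing _x_at kind only for want of another. Group means were fitted with limma 3.58.1 (lmFit and trended eBayes) under R 4.3.3, with two-sided tests and Benjamini-Hochberg adjustment over 13576 probe sets. The procedure was tested on simulated data. Named were the 12 rises and 12 falls with the largest change among those that passed, filled up by the smallest p, up to 3 members of each of 49 gene lists with the smallest p, every list member whose groups did not overlap, and 29 fixed genes. Other list members given with values, and probe sets with several symbols, were chosen after their values were seen. The comparison, its members and the lists were chosen with earlier results of these data known. Alternatives changed the filter, scaling, pseudocount, variance model, array weights, covariates, replicate block and the arrays included.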

Additional observations from a re-analysis of the deposited data

Results flagged for a closer look

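Each named gene was looked at for 1 array far from the rest of its group, by the gap to the nearest array as a share of the group's whole range (Dixon's ratio). Of 314 groups of 5 or 6 arrays 23 held such an array, and chance alone marks about 1 group in 20. Array ob/ob 5 held 8 of them. It was the lowest of its group in Npy5r (527 with the nearest array at 633, ratio 0.895), in Cacybp (ratio 0.732) and in Ttc30a1 (ratio 0.722). The same array was the highest in Grin2c (ratio 0.904), Uqcrc1 (11720 against 8849, ratio 0.839), Hrh3 (2973 against 2527, ratio 0.8), Cnp (ratio 0.728) and Serpina3n (ratio 0.719).

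Array STZ 6 held 5 of the 23. It was the highest of its group in Sox2 (ratio 0.643) and Dio2 (ratio 0.641) and the lowest in Gabra3 (ratio 0.684), Srebf2 (2665 against 3101, ratio 0.668) and Akr1b8 (ratio 0.641). STZ 3 was the highest in Oxt (15357 against 10866, ratio 0.773), Avp (19936 against 13694, ratio 0.699) and Slc2a3 (ratio 0.717). STZ 4 was the highest in Crym (ratio 0.718) and the lowest in Ramp3 (ratio 0.682), and STZ 5 was the lowest in Ap2b1 (2263 against 2960, ratio 0.632). Among the other ob/ob arrays, ob/ob 4 was the highest in Dgat2 (ratio 0.77) and Ppp1r1b (ratio 0.763), ob/ob 3 in Manf (2906 against 2561, ratio 0.868) and ob/ob 1 in Sfpq (ratio 0.719).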

How the results depend on the processing

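The number of probe sets past the adjusted threshold, 1, was small enough to change with most settings. It was 5 with all 3 groups in 1 model and 5 with median centring, 4 with array weights, 3 with quantile normalization and 3 with the replicate block. It was 0 with no filter, 0 without a variance trend, 0 with the neighbouring-region covariate and 0 with the microglia covariate, the last chosen after seeing the data, where 0 by limma stood beside 870, 551, 453 and 990 probe sets at an unadjusted p under 0.05. Leaving out each array in turn gave 0 to 3, and 468 to 671 at the unadjusted threshold. That unadjusted number moved from 534 to 870 with no filter, where more probe sets were tested, and to 990 with the microglia covariate, where the cause was not tested. The MHC class I members lower at an unadjusted p under 0.05 numbered 3 under each alternative run. The interferon-induced members numbered 7 to 9, except 1 at the 60th percentile filter, which left 2 of 12 tested. B2m stood between -0.45 and -0.52 throughout, with adjusted p from 0.00288 to 0.239. Genes that did not pass in the report passed under some settings, with limma adjusted p in each case below 0.05. H2-K1 passed with 3 groups in 1 model, median centring, array weights, the replicate block and without ob/ob 5 (0.0292 to 0.0463). Gbp7 passed with 3 groups in 1 model, quantile normalization, median centring, array weights, the mean of probe sets and without STZ 3 (0.0252 to 0.045). Inafm2 passed with quantile normalization, median centring, the mean of probe sets, without STZ 4, without ob/ob 4, and without ob/ob 3 and 4 together (0.0179 to 0.0423), and Ifitm3 with the replicate block (0.0292). Same-numbered ob/ob and STZ arrays had deviations correlated at -0.167 to 0.101, so the numbers were not taken to pair the arrays. Of the 61 named genes at an unadjusted p under 0.05, 0 changed sign under any of the 25 alternatives. The median SE of a log2 difference was 0.0829, and that spread with 5 and 6 arrays limits which differences could be resolved.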
